A study of Mus musculus with 5 samples.

Results

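The 45 genes described here make up a list of interferon response genes of the mouse, taken by symbol from the expression tables of 5 RNA sequencing libraries. All 45 were found once in each table, which hold 38166 features for the stem and progenitor libraries and 34315 for the granulocyte libraries. Of the 45, 44 had a feature of their own and Ifi47 shared its feature with Olfr56. The list was put together with the values of these libraries in view and has no threshold, so the differences of its genes in the knockdown libraries are given as a description, without a test.

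The samples came from C57BL/6 mice. KSL cells are bone marrow cells that carry c-Kit and Sca-1 and lack lineage markers, and they hold blood stem cells and early progenitors. For the 3 KSL libraries, Sca-1+ cells were taken from mice given 5-fluorouracil (5-FU), transduced with a retrovirus carrying a green fluorescent marker and a knockdown construct, kept in culture for 2 days with stem cell factor (10 ng/ml) and thrombopoietin (100 ng/ml), and sorted again as marked KSL cells. The groups were a knockdown control, a knockdown of the long non-coding RNA LncHSC-1 and a knockdown of LncHSC-2, with 1 library each. All 3 therefore share the drug, the virus and the culture. The number of mice behind a library is not given in the labels. Granulocytes were Gr1+ bone marrow cells of mice aged 12 months, for which the labels name no virus or culture, and were sequenced as 2 technical replicates of 1 biological replicate.

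Interferons are secreted proteins that warn cells of infection. Type I interferons bind a receptor made of Ifnar1 and Ifnar2, whose kinases Jak1 and Tyk2 switch on a complex that holds Stat2 and Irf9 and binds the interferon-stimulated response element of target genes. Interferon gamma acts through Ifngr1 and Ifngr2 and on the gamma-activated site. The target genes encode proteins that sense viral nucleic acids, block viral entry and translation, and raise antigen presentation. In the blood system interferon is also known to bring resting stem cells into cycle, and Ly6a, which encodes the sort marker Sca-1, is itself induced by interferon.

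Depth was estimated at 19934925 to 24145600 reads for the KSL libraries, and the deposited totals of the granulocyte replicates were 40414961 and 40394825 scaled counts. The KSL libraries held the transcripts of the sort. Kit was at 67.6 FPKM (fragments scaled by transcript length and library depth) in control, 59.1 with LncHSC-1 knockdown and 62.0 with LncHSC-2 knockdown. In the same order Cd34 was at 229, 204 and 237 FPKM and Ly6a at 1010, 1211 and 1025 FPKM. Kit and Cd34 were thus lowest, and Ly6a highest, in the LncHSC-1 library. The granulocytes held S100a8 at 56391 and Ly6g, the gene of the Gr1 antigen, at 505 FPKM (means of 2 technical replicates). The sources used here do not say which features stand for the 2 targeted RNAs, so the extent of each knockdown was not measured. With 1 library a group, a difference between libraries has no replicate check, and the intervals below cover counting error only. In such bulk samples, more cells of a type and more RNA per cell cannot be told apart.

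Promoter sequence is described first, because the listed genes are known as targets of shared binding sites. RefSeq promoter windows (GRCm38.p6, 250 bases before to 50 after an annotated start) were given for 34 of the 45 genes by symbol; Cfb, Dhx58, Iigp1, Mx1, Mx2, Oas2, Parp14, Parp9, Rtp4, Usp18 and Zbp1 were not in the table. The core of the interferon-stimulated response element was searched on both strands as GAAA and GAAA with 2 bases of any kind between them. It was found for 17 of the 34 genes (50%), against 3.99% of 27025 symbols with a promoter window. The core of the gamma-activated site, TTCNNNGAA, which reads the same on both strands, was found for 9 of the 34 (26.5%), against 9.55% of all symbols. Bst2, Eif2ak2, Ifitm3, Igtp and Oas1a held both, and in Bst2 and Ifitm3 the matches overlapped by 3 bases. A match is a description of the letters and does not show that a factor binds there.

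The stretches below, in the direction of the gene from 5′ to 3′, show matches in genes from the top, the middle and the bottom of the range of differences described further on. Capitals mark the letters of the response element core alone, with its overlapping matches run together; TTTC and TTTC is the same core on the other strand. Isg15 has 3 overlapping matches, from position −78 to −57 relative to the start, while the matches of Eif2ak2 and Ifih1 lie after the start.
Isg15, chr4:156200866-156200905, minus strand: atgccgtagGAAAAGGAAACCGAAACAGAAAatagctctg
Bst2, chr8:71537575-71537614, minus strand: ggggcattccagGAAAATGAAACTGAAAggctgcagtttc
Irgm1, chr11:48871423-48871462, minus strand: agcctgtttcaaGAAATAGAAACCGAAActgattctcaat
Oas1a, chr5:120907523-120907552, minus strand: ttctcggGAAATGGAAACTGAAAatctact
Apol9a, chr15:77411112-77411151, minus strand: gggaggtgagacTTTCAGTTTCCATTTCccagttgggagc
Gbp3, chr3:142559987-142560026, plus strand: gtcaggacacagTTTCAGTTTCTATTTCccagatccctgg
Ifit3, chr19:34583392-34583431, plus strand: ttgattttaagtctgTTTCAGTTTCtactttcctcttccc
Ifit1, chr19:34640789-34640828, plus strand: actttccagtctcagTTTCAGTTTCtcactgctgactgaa
Ifih1, chr2:62646206-62646235, minus strand: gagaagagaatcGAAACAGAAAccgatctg
Eif2ak2, chr17:78882535-78882564, minus strand: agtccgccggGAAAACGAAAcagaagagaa

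**Figure D1:**
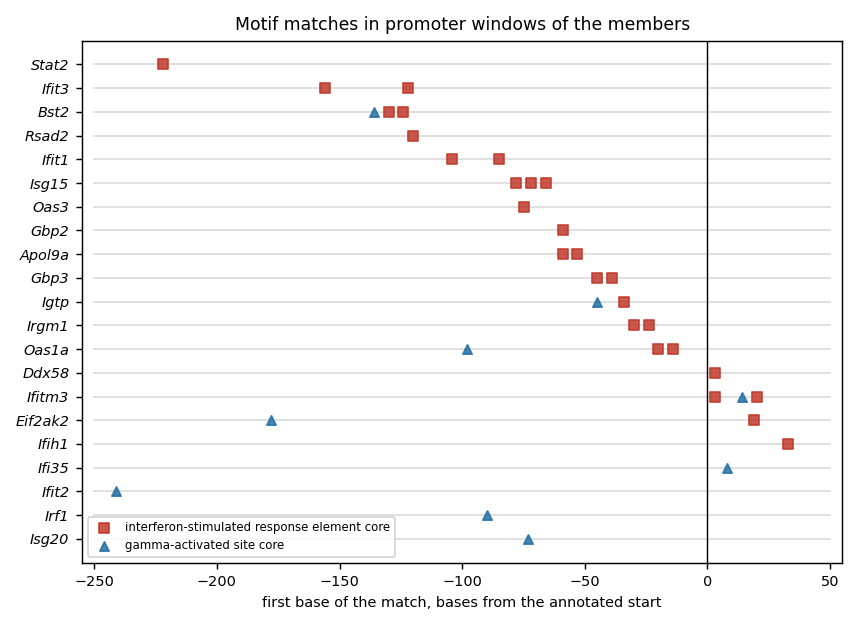
Each row is a promoter window of a listed gene, the x axis gives the first base of a match in bases from the annotated start, squares mark the response element core and triangles the gamma-activated site core. Of the response element matches that of Stat2 lies farthest upstream, at −222, and those of Ddx58, Ifitm3, Eif2ak2 and Ifih1 lie after the start; the gamma-activated site match of Ifit2 lies at −241; for Apol9a the nearer of its annotated starts is drawn.

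With LncHSC-1 knockdown every gene of the list was above its control value, by little in most cases. The median log2 ratio of FPKM + 1 was 0.37, with a range from 0.06 for Eif2ak2 to 1.43 for Cfb. The central part of the list, between its quartiles, lay from 0.27 to 0.53. Over all 9153 features with a mean of at least 5 FPKM in the 3 KSL libraries the median was −0.02, and 95% of them lay between −0.30 and 0.42. All 45 listed genes passed that floor of 5 FPKM, although Cfb passed it only through the LncHSC-1 library. Among the 45, 45 were higher in the LncHSC-1 library, against 43.8% of all features. The ratio of FPKM + 1 reached 25% above control for 28 of them, against 3.70% of all features, and 2-fold for 3, against 0.634%. The counting interval lay above 0 for 45 of the 45, against 14.8% of all features. Since the list was chosen with this contrast known, nothing is read from these counts beyond their size.

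The levels themselves were high in each KSL library. In the control library the listed genes had a median of 64.6 FPKM. At 5 FPKM or more were 44 of the 45, against 9108 of all 38166 features. The same 44 were at 10 FPKM or more, a level at which all features were not counted. The median was 74.96 FPKM with LncHSC-1 knockdown and 65.8 with LncHSC-2 knockdown. Summed over the list, 5653 FPKM in control, 7364 with LncHSC-1 knockdown and 5905 with LncHSC-2 knockdown made up 1.29%, 1.71% and 1.3% of the FPKM of all features. The plot of levels shows a single pattern in nearly all rows, with the control and LncHSC-2 points close together and the LncHSC-1 point to their right.

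**Figure D2:**
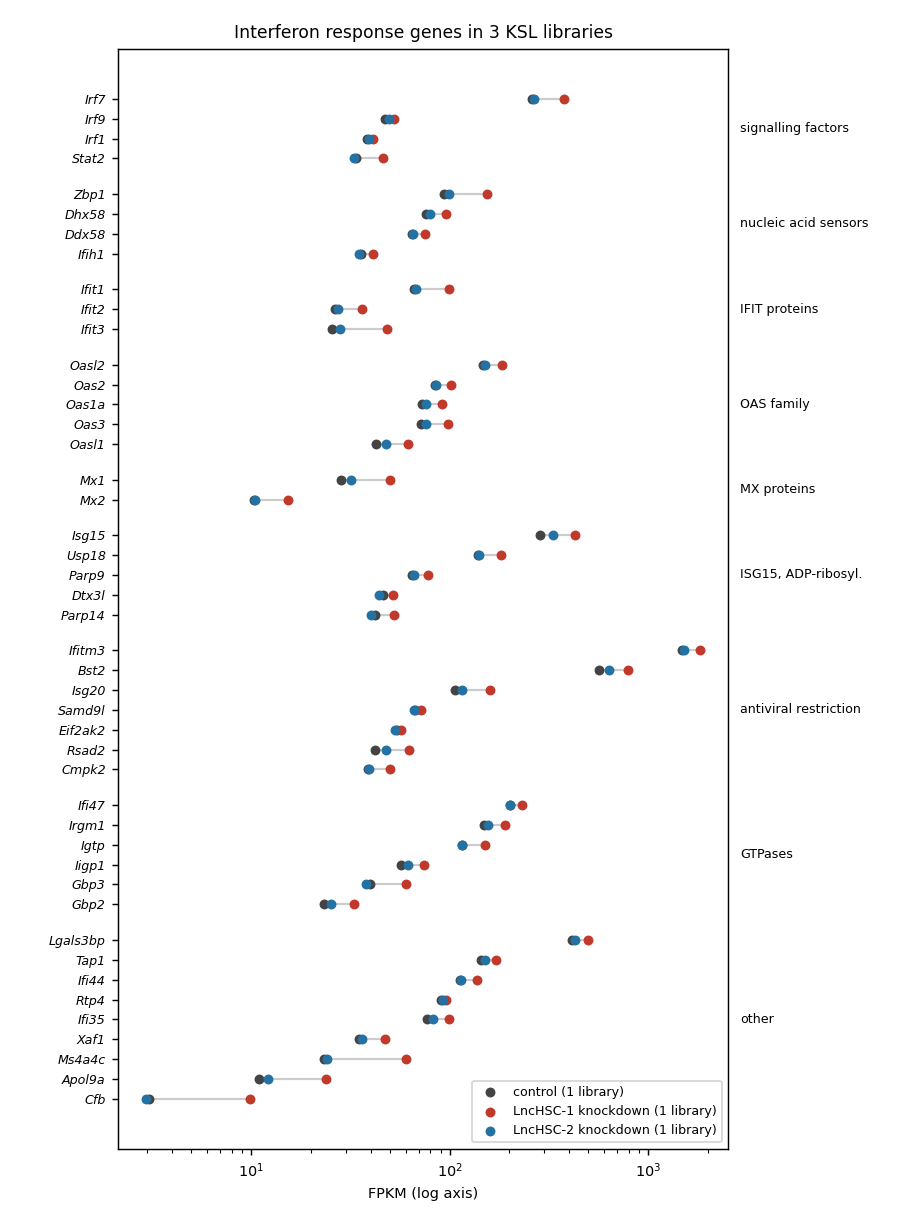
FPKM (log axis) of the 45 listed genes in the KSL libraries of the control and of both knockdowns, 1 library each, grouped by role. The LncHSC-1 point is the rightmost in every row, from 9.92 FPKM for Cfb to 1832 FPKM for Ifitm3.

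The signalling factors that carry the response split into a pair that stood clearly above control and a pair that hardly did. Irf7, the factor that amplifies type I interferon production, was at 261 FPKM in control, 377 with LncHSC-1 knockdown and 265 with LncHSC-2 knockdown, and its log2 ratio in the LncHSC-1 library was 0.53 (counting interval 0.50 to 0.56). Stat2, a subunit of the type I complex, was at 34.0, 46.1 and 32.8 FPKM in the same order, with a ratio of 0.43 (0.38 to 0.50). In contrast Irf9, the DNA-binding subunit of that complex, was at 47.4, 52.5 and 49.7 FPKM (0.15, 0.07 to 0.22). Irf1, which interferon gamma induces strongly, was at 38.6, 41.2 and 39.1 FPKM (0.09, 0.01 to 0.18). The control and LncHSC-2 values of all 4 lay within 5 FPKM of each other.

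Among the sensors of foreign nucleic acid, Zbp1 stood apart. This sensor of left-handed nucleic acids, which can start necroptosis, was at 93.7 FPKM in control, 154 with LncHSC-1 knockdown and 99.6 with LncHSC-2 knockdown. Its log2 ratio in the LncHSC-1 library was 0.71 by FPKM + 1 and 0.77 by estimated reads. The counting interval of 0.70 to 0.84 belongs to the ratio of reads. The 3 RNA helicases of the RIG-I family were closer to control. Dhx58 was at 75.6, 95.8 and 79.2 FPKM (0.34, 0.28 to 0.40). Ddx58, which encodes RIG-I, was at 64.5, 74.96 and 65.4 FPKM (0.21, 0.17 to 0.26). Ifih1, which encodes MDA5, was at 35.9, 41.2 and 35.0 FPKM (0.19, 0.14 to 0.25).

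The IFIT and MX genes, whose products bind viral RNA and viral nucleocapsids, were among the groups with the widest ratios. Ifit3 (chromosome 19, 34658019 to 34663472 in mm9) was at 25.6 FPKM in control, 48.5 with LncHSC-1 knockdown and 28.1 with LncHSC-2 knockdown, a log2 ratio of 0.89 (0.82 to 1.02). Its neighbours on chromosome 19, Ifit1 at 65.8, 99.6 and 67.7 FPKM and Ifit2 at 26.3, 36.2 and 27.3 FPKM, had ratios of 0.59 (0.54 to 0.65) and 0.45 (0.39 to 0.53). Ifit3 lies 6995 bases from Ifit2 and 51.9 kb from Ifit1. Mx1 (chromosome 16, 97668642 to 97684513) was at 28.3, 50.2 and 31.9 FPKM (0.80, 0.75 to 0.91), and Mx2, 73.2 kb away, was at 10.4, 15.4 and 10.4 FPKM (0.53, 0.42 to 0.72). In all 5 the control and LncHSC-2 libraries were close and the LncHSC-1 library was well above both.

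The OAS family is known for enzymes that make a second messenger, which activates an RNA-degrading enzyme. Its member Oasl1 does not make the messenger and is known to restrain the translation of Irf7. Oasl2 was at 148 FPKM in control, 183 with LncHSC-1 knockdown and 150 with LncHSC-2 knockdown, with a log2 ratio of 0.31 (0.28 to 0.35). Oas2 was at 84.8, 101 and 85.9 FPKM (0.25, 0.21 to 0.30) and Oas1a at 72.2, 91.6 and 75.9 FPKM (0.34, 0.28 to 0.41). Oas3, only 3.25 kb from Oas2, was at 71.4, 98.4 and 76.3 FPKM, a wider ratio of 0.46 (0.42 to 0.50). Oasl1 had the widest of the family, 42.7, 61.4 and 47.7 FPKM (0.52, 0.45 to 0.60). Oas1a has close paralogs, so the split of reads among them is uncertain.

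Isg15, a small protein that is attached to others like ubiquitin, was among the most abundant genes of the list. It was at 286 FPKM in control, 428 with LncHSC-1 knockdown and 331 with LncHSC-2 knockdown, a log2 ratio of 0.58 (0.53 to 0.64) for LncHSC-1. Usp18, the enzyme that removes Isg15 and restrains the type I receptor, was at 138, 181 and 141 FPKM (0.38, 0.34 to 0.43). The ADP-ribosyltransferase genes Parp9 and Parp14 and the ubiquitin ligase gene Dtx3l lie side by side on chromosome 16 and were closer to control. Parp9 was at 64.6, 78.0 and 65.8 FPKM (0.27), Parp14 at 42.0, 52.2 and 40.4 FPKM (0.31) and Dtx3l at 46.3, 51.7 and 44.0 FPKM (0.16). Parp9 and Dtx3l are listed at the same locus, so how reads were divided between them is uncertain.

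The antiviral restriction genes held both the highest level of the list and its smallest ratio. Ifitm3, which blocks the fusion of viruses in endosomes, was at 1479 FPKM in control, 1832 with LncHSC-1 knockdown and 1520 with LncHSC-2 knockdown (0.31, 0.28 to 0.34). Bst2, or tetherin, which holds budding viruses at the cell surface, was at 564, 792 and 633 FPKM (0.49, 0.45 to 0.53). The RNA exonuclease gene Isg20 was at 106, 159 and 115 FPKM (0.57, 0.50 to 0.65). Rsad2, or viperin, was at 41.8, 62.1 and 47.5 FPKM (0.56, 0.51 to 0.63), and the nucleotide kinase gene Cmpk2, 12.8 kb away on chromosome 12, was at 39.0, 49.8 and 39.0 FPKM (0.35, 0.29 to 0.42). Samd9l was at 67.1, 71.7 and 65.9 FPKM (0.09, 0.06 to 0.14). Eif2ak2, which encodes PKR, the kinase that halts translation on double-stranded RNA, was at 54.2, 56.7 and 53.1 FPKM, a ratio of 0.06 (0.01 to 0.12).

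The interferon-inducible GTPases attack the vacuoles of intracellular pathogens and are known chiefly as targets of interferon gamma. The feature of Ifi47 and Olfr56 was at 202 FPKM in control, 231 with LncHSC-1 knockdown and 202 with LncHSC-2 knockdown (0.19, 0.15 to 0.24). Irgm1 was at 148, 189 and 156 FPKM (0.35, 0.31 to 0.40) and Igtp at 116, 150 and 116 FPKM (0.38, 0.33 to 0.43). Iigp1, at 57.2, 74.2 and 61.4 FPKM, gave 0.37 (0.31 to 0.43). The guanylate-binding protein genes gave the widest ratios of the group. Gbp3 was at 39.6, 60.2 and 37.9 FPKM (0.59, 0.54 to 0.68), and Gbp2, 47.5 kb away on chromosome 3, was at 23.2, 32.9 and 25.2 FPKM (0.49, 0.41 to 0.61).

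The 3 genes past 2-fold belong to the remaining members, which have no role in common. Cfb, complement factor B of the alternative pathway (chromosome 17, 34993319 to 34999459), was at 3.07 FPKM in control, 9.92 with LncHSC-1 knockdown and 2.95 with LncHSC-2 knockdown. Its log2 ratio was 1.43 with the pseudocount and its counting interval, which has none, was 1.47 to 1.93. Ms4a4c, a membrane protein of the family of the B cell antigen Ms4a1 (chromosome 19, 11482151 to 11501736), was at 23.2, 60.3 and 24.2 FPKM (1.34, 1.27 to 1.48). Apol9a, an apolipoprotein L gene (chromosome 15, 77234219 to 77241510), was at 11.0, 23.9 and 12.2 FPKM (1.05, 0.95 to 1.30), and since Apol9b is a near copy the share of each is uncertain. These 3 began from low control levels, and Cfb had the lowest of the list.

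The other 6 of this group were nearer to control. Lgals3bp, a secreted glycoprotein gene, was at 414 FPKM in control, 499 with LncHSC-1 knockdown and 427 with LncHSC-2 knockdown (0.27, 0.24 to 0.29). The peptide transporter gene Tap1 was at 144, 171 and 152 FPKM (0.25, 0.21 to 0.29). Xaf1 (0.41), Ifi35 (0.37), Ifi44 (0.28) and Rtp4 (0.09) completed the list. Rtp4, with 90.8, 96.4 and 92.1 FPKM, joined Eif2ak2, Irf1, Samd9l, Irf9 and Dtx3l as the 6 lowest ratios. Across the 45 genes the ratio and the control level had a Spearman rho of −0.32, a description over genes that share the same 2 libraries, in which a high control value also lowers the ratio.

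In the LncHSC-2 library the same genes lay close to control. The median log2 ratio was 0.04, against 0.00 for all features, and 37 genes were higher and 8 lower, whereas the count columns as deposited, which place the typical feature of this library at −0.14, gave 5 higher and 40 lower with a median of −0.105; by either measure 34 of the 45 stood above the median of all features. By FPKM 52.1% of all features were higher. Of the 45, 0 were higher by 25% or more, against 2.29% of all features, and for 45 genes a count of 0 is near that share. Also 0 were lower by that much, for which the share of all features was not counted. The counting interval lay above 0 for 17 genes (13% of all features) and below 0 for Dtx3l and Parp14, and it included 0 for 26. The shares of all features with an interval below 0 or including 0 were not counted. The highest were Isg15 (0.21, 0.14 to 0.26), Rsad2 (0.18, 0.12 to 0.25), Mx1 (0.17, 0.08 to 0.27) and Bst2 (0.17, 0.12 to 0.20). The lowest were Dtx3l (−0.07, −0.12 to −0.02), Gbp3 (−0.06, −0.15 to 0.02), Parp14 (−0.06, −0.10 to −0.01) and Stat2 (−0.05, −0.12 to 0.02). Cfb, Ms4a4c and Apol9a, the widest in the LncHSC-1 library, were at −0.04, 0.06 and 0.14, and the interval of each included 0.

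**Figure D3:**
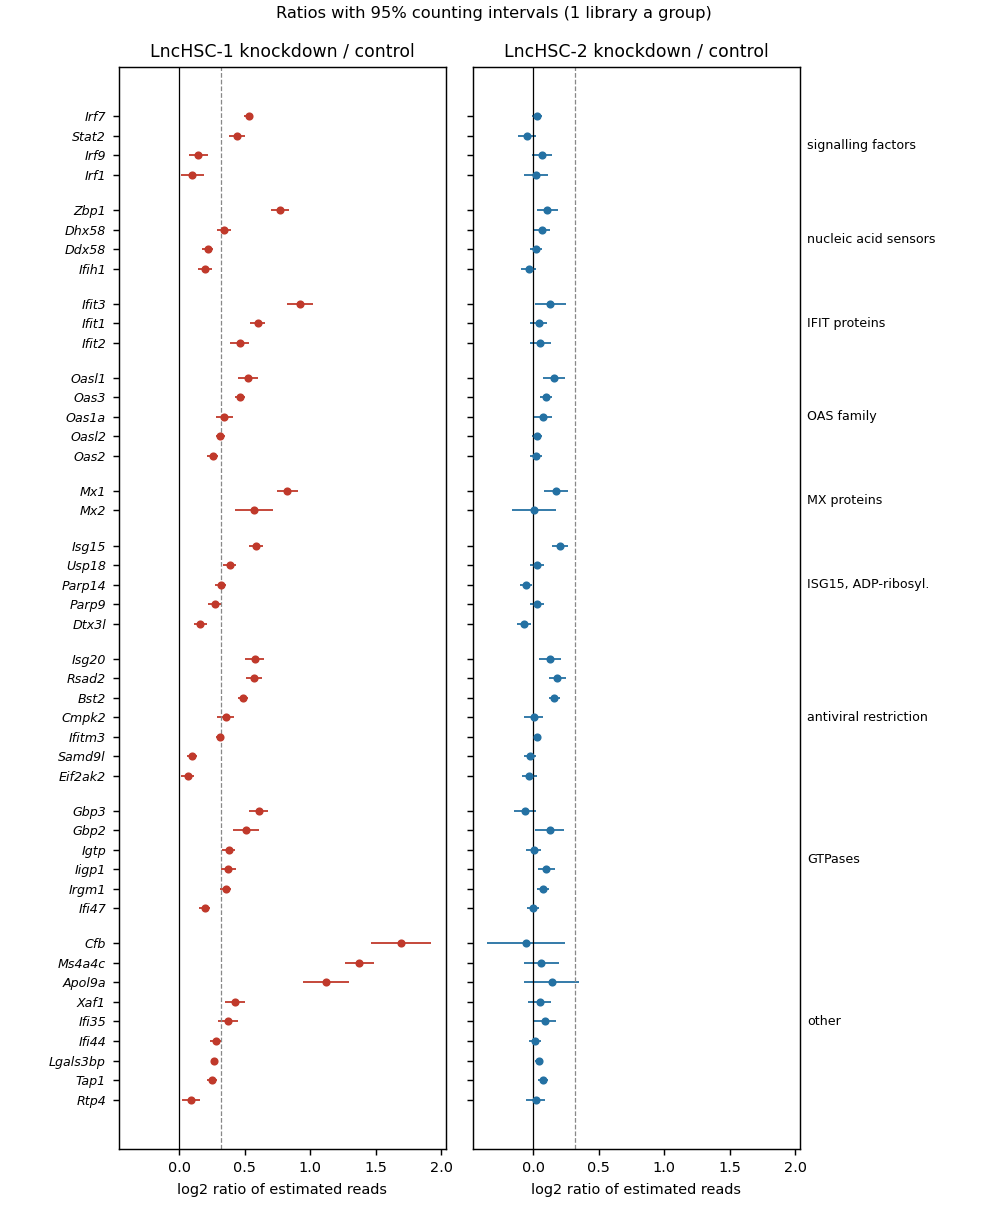
Log2 ratio of estimated reads to control, without a pseudocount, for the 45 listed genes in the LncHSC-1 (left) and LncHSC-2 (right) library; bars are 95% counting intervals, which cover counting error only, the solid line is 0 and the dashed line 25% above control. All intervals on the left lie above 0, while on the right 26 include it; both panels use the same control library.

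Set directly against the LncHSC-2 library, which leaves the control library out but uses the same LncHSC-1 library, the list gave nearly the same picture. The median log2 ratio was 0.34 (all features −0.03), and 45 of the 45 genes were higher, against 40.4% of all features. By 25% or more 23 genes were higher, against 3.30% of all features, and the counting interval lay above 0 for 44, against 12.5%. Irf1 was the exception, at 0.07. Cfb (1.47) and Ms4a4c (1.28) were past 2-fold, and Apol9a (0.92), Ifit3 (0.77), Gbp3 (0.66) and Mx1 (0.64) came next.

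Granulocytes held a different order of the same genes. Their FPKM values come from other tables with another divisor, so they are set beside the KSL values without a fold. Of the 45 genes 32 were at 5 FPKM or more (71.1%, against 17.7% of all 34315 features), and the median was 9.96 FPKM. Ifitm3 was again the highest, at 351 and 347 FPKM in the 2 technical replicates. Samd9l came next, at 104 and 105 FPKM, then Irf1 at 45.9 and 44.8, Oas3 at 43.8 and 44.4 and Oasl2 at 36.8 and 36.9 FPKM. The replicates differed by at most 1.11-fold among the genes at 5 FPKM or more, which measures technical error only. Samd9l and Irf1, which lead here, were near or below the median of the list in the control KSL library and had some of the smallest ratios in the LncHSC-1 library.

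Other genes of the list had low values in the granulocytes. Ifi44, an interferon target at 113 FPKM in the control KSL library, was at 0.0759 and 0.0690 FPKM in the granulocyte replicates. Iigp1 was at 0.109 and 0.135, Mx2 at 0.216 and 0.199 and Mx1 at 1.43 and 1.40 FPKM. Lgals3bp, the third highest gene of the list in the control KSL library, was at 2.99 and 2.85 FPKM, and Bst2, the second highest, at 4.36 and 5.31 FPKM. Apol9a was listed at 0 in both replicates. Ranked among the features above 0 of its own library, the median gene of the list stood at the 93.3rd percentile in the control KSL library and, over the genes above 0, at the 80.6th in the granulocytes. In granulocytes 7 genes had the higher percentile, among them Irf1 (94.7 against 87.7), Samd9l (98.1 against 93.55) and Irf9 (91.7 against 90.35).

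**Figure D4:**
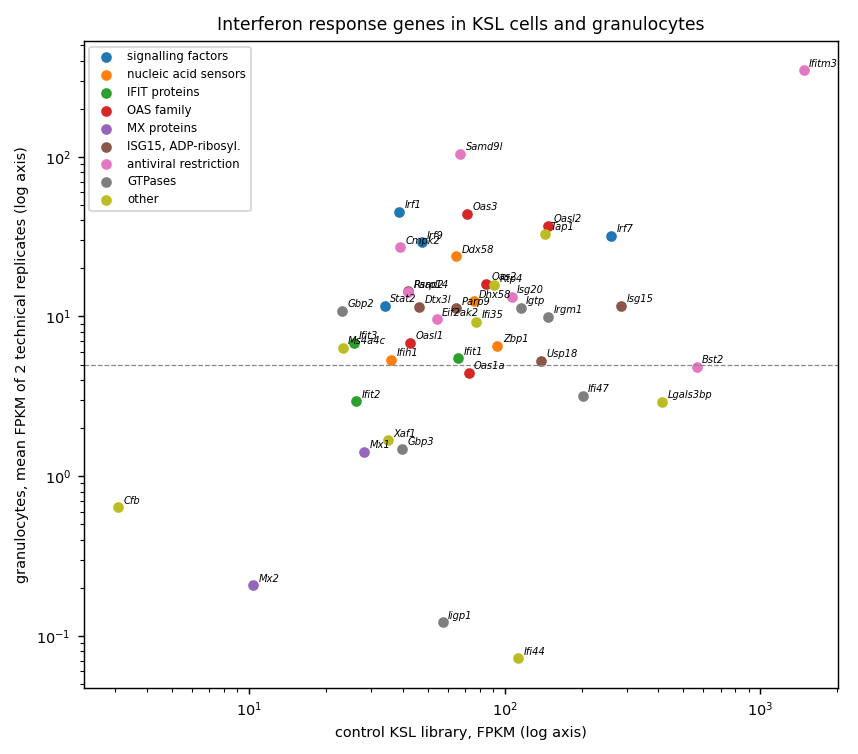
FPKM of the listed genes in the control KSL library (x, log axis) and in granulocytes (y, log axis, mean of 2 technical replicates), coloured by role; the dashed line marks 5 FPKM in granulocytes and Apol9a, listed at 0 there, is left out. Ifitm3 is highest on both axes, and Ifi44 and Iigp1 sit lowest on the granulocyte axis at 0.0724 and 0.122 FPKM.

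The pathway upstream of these genes was read from a second list, of genes outside the 45. Of 19 interferon genes 15 were at 0 in all 3 KSL libraries and none exceeded 0.111 FPKM, the value of Ifnb1 in the LncHSC-1 library. Among the receptor genes, Ifnar1 was at 8.76 FPKM in control, 8.85 with LncHSC-1 knockdown and 8.64 with LncHSC-2 knockdown, Ifnar2 at 46.5, 51.3 and 46.4 FPKM and Ifngr1 at 27.3, 24.1 and 25.3 FPKM. Of the 5 receptor and 3 kinase genes at the floor, 0 differed by 25% or more in the LncHSC-1 library, with medians of 0.01 and 0.05. Of all features 3.70% were higher by that much, and with so few genes a count of 0 is near that share. Jak1 was at 69.6, 64.2 and 68.6 FPKM.

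The log2 ratios of the signal transducer genes Stat3, Stat5a and Stat5b in the LncHSC-1 library lay between −0.06 and 0.04. The list of further interferon regulatory factors, which also holds the genes of the IRF2-binding proteins Irf2bp1 and Irf2bp2, had 6 genes at the floor. Of these 2 were higher by 25% or more in the LncHSC-1 library, against 3.70% of all features. Irf8 was at 9.60 FPKM in control, 14.8 with LncHSC-1 knockdown and 10.8 with LncHSC-2 knockdown (0.57), and Irf5 at 11.4, 16.9 and 13.4 FPKM (0.53). Irf4, under the floor, was at 3.26, 6.64 and 3.30 FPKM. Irf3, which first responds to viral RNA, was at 23.3, 25.3 and 23.9 FPKM (0.11). Among 9 sensing adaptor, kinase and receptor genes only Tlr7 was higher by 25% or more, at 5.68, 8.66 and 5.20 FPKM (0.53), a count too small to set apart from 3.70%. Tbk1 was at −0.08. The 6 restrainers at the floor had a median of 0.14, with Trim30a at 0.19, Adar at 0.20 and Ptpn6 at −0.08.

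Of 51 further interferon-stimulated genes at the floor, 48 were higher and 3 lower in the LncHSC-1 library, with a median of 0.26, where 43.8% of all features were higher. By 25% or more 19 were higher, against 3.70% of all features, and 0 lower, the chemokine genes Cxcl10 (1.38) and Ccl5 (1.18) most. Among the most abundant, B2m, the light chain of class I molecules, was at 4024, 4342.5 and 4354 FPKM (0.11), and Ly6e at 1124, 1406 and 1203 FPKM (0.32). Ifitm1, of the same family as Ifitm3, was lower, at 874, 821 and 823 FPKM (−0.09). In the LncHSC-2 library 23 of the 51 were higher by FPKM and 28 lower, with a median of −0.02, where 52.1% of all features were higher. By 25% or more 0 were higher, against 2.29% of all features. The 3 knockdown comparisons share libraries, so these counts are not independent of each other. This list was also made with earlier results of these data known.

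**Figure D5:**
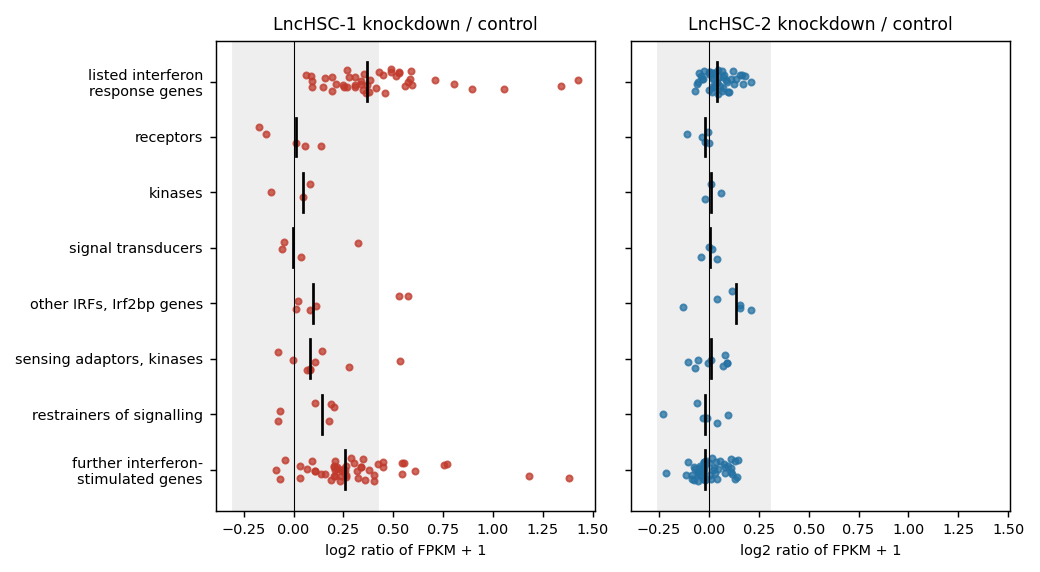
Log2 ratio of FPKM + 1 to control for the 45 listed genes (top row) and for other interferon pathway genes at the floor, by role, in the LncHSC-1 (left) and LncHSC-2 (right) library; black bars are medians and the grey band holds 95% of all 9153 features. On the left all listed genes and 48 of the 51 further interferon-stimulated genes lie to the right of 0, with medians of 0.37 and 0.26, while receptors and kinases centre near 0.

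Genes of other blood cells differed between the same libraries, and their part in the result was not tested. The 12 genes of the B lineage list summed to 61.1 FPKM in control, 110 with LncHSC-1 knockdown and 63.7 with LncHSC-2 knockdown, with Cd79a at 11.6, 22.0 and 11.5 FPKM and Igll1 at 0, 1 and 1 reads. All 6 of them at the floor were higher in the LncHSC-1 library by 25% or more, against 3.70% of all features. Some, such as Blnk at 4.26, 9.53 and 4.75 FPKM, reached the floor only through that library. The 15 dendritic cell genes other than Bst2 summed to 205, 327 and 219 FPKM. The 4 class II genes among them, H2-Aa, H2-Ab1, H2-Eb1 and Cd74, summed to 159, 281 and 173 FPKM, and the other 11 to 45.7, 46.0 and 45.5 FPKM. Most of the sum of those 11 came from Flt3, at 24.4, 22.0 and 24.7 FPKM, and Tcf4, at 16.0, 16.2 and 15.5 FPKM. At low levels, Ccr9 was at 0.919, 1.76 and 0.828 FPKM and Pacsin1 at 0.797, 1.82 and 1.055 FPKM. Only Flt3 and Cox6a2, the latter at 0.635, 0.272 and 0.675 FPKM, were lower in the LncHSC-1 library than in control. Siglech, which marks plasmacytoid dendritic cells, a main source of type I interferon, was at 2.22, 2.998 and 2.07 FPKM, and Cd209a was at 0 in all 3 libraries. The 11 monocyte and macrophage genes summed to 80.3, 162 and 88.4 FPKM, chiefly through Ly6c2 at 32.5, 101 and 42.3 FPKM, while Csf1r was at 2.24, 2.31 and 2.09 FPKM. The 11 T and NK genes summed to 74.2, 80.6 and 68.2 FPKM, with Cd3e at 1, 0 and 0 reads. Nkg7, the most abundant of them, was at 56.0, 55.2 and 51.8 FPKM. Of the 4 at the floor, Nkg7 was lower in the LncHSC-1 library than in control and the other 3 were higher by 25% or more. Thy1 was at 6.44, 9.87 and 5.55 FPKM and Gzmb at 5.72, 7.74 and 5.26 FPKM. Lck, at 4.91, 6.39 and 4.56 FPKM, reached the floor only through the LncHSC-1 library. Granulocyte genes summed to 118, 111 and 109 FPKM, erythroid genes to 87.0, 93.0 and 69.8 FPKM and megakaryocyte genes to 566, 729 and 701 FPKM. The megakaryocyte sum was above control in both knockdown libraries.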

How the data were processed

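RNA sequencing of polyA-selected RNA was analysed in 5 libraries, grouped by their labels. The submitters' processing notes name the mouse build mm9 and DESeq; an aligner, a counter and an annotation release were not given in the sources used here. As deposited, each table gives FPKM and a count column. FPKM as deposited by the authors was the main measure, with no further scaling, since size factors computed by median of ratios lay between 0.996 and 1.0 for KSL cells. The KSL count columns as deposited hold a signal in which a library's reads carry a common factor: of values up to 20 reads, 91.7% to 92.1% came out whole to within 0.1 read. The granulocyte count columns as deposited are a score, scaled and rounded.

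Log2 ratios used a pseudocount of 1 FPKM, and all features with a mean of at least 5 FPKM served as background. Exact binomial 95% intervals were computed from estimated reads (the signal divided by its step) and a relative depth taken from the reads that 1 FPKM stood for. These intervals belong to the ratio of estimated reads without a pseudocount, which can differ from the ratio of FPKM + 1 printed beside them. They were tested on simulated reads that held counting error only, so that test says nothing of variation between replicate libraries. Rules of size were 25% and 2-fold. No test between conditions was possible with 1 library a group, and no p-value is given. Positions of genes are in mm9, as in the files; promoter windows are RefSeq's on GRCm38.p6. All listed genes could be named, with values for the most abundant of each role and the highest and lowest ratios; other pathway genes were named by level or distance from control. The members and lists were chosen with earlier results of these data known. Some genes of the lists are not reported here by name. Python 3.11.15, pandas 2.3.3 and scipy 1.17.1 were used.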

Additional observations from a re-analysis of the deposited data

How the results depend on the processing

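With 1 library a group these results measure 2 libraries, and no left-out replicate could be tried for the KSL libraries. No paired analysis was possible because each KSL group has 1 library. A pseudocount of 0.1, a floor of 1 FPKM, no floor, centred FPKM, centred count columns and leaving out the merged feature gave 28 or 29 genes at least 25% higher and 3 at least 2-fold higher for LncHSC-1 against control, with medians of 0.369 to 0.38. They gave 34 to 37 genes higher for LncHSC-2 against control, with medians of 0.0376 to 0.0418, and 23 or 24 genes at least 25% higher for LncHSC-1 against LncHSC-2, with medians of 0.345 to 0.362. The deposited count columns, uncentred, gave 5 higher and 40 lower genes and a median of −0.105 for LncHSC-2 against control, and 39 genes higher by 25% or more with a median of 0.498 for LncHSC-1 against LncHSC-2, because they place the typical feature of the LncHSC-2 library at −0.14 against control. Of single ratios under all alternatives, 850 of 942 stayed within their counting error and 92 did not, 88 of them under those columns and the others all of Cfb. The median granulocyte level was 9.65 to 10.3 FPKM with either technical replicate left out. At 1 and 10 FPKM, 40 and 22 of the 45 genes were present in granulocytes, against 10050 and 4239 of all 34315 features. With 1 mismatch allowed, 31 and 30 of 34 promoters held the response element and the gamma-activated site, as did 38.9% and 74.2% of all; before the start alone 13 and 7 did, against 3.46% and 8.13%. Genes with few reads, Cfb above all, have the widest intervals.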

Other observations

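The receptors of the 3 interferon types stood in another order in granulocytes. Il28ra, the ligand-binding chain of the interferon lambda receptor, named here after its values were seen, was at 37.0 FPKM in granulocytes (mean of 2 technical replicates) and at 0.0307 FPKM in the control KSL library, 0.0967 with LncHSC-1 knockdown and 0.0325 with LncHSC-2 knockdown. Its partner chain Il10rb was at 53.1 FPKM in granulocytes. Ifngr2, at 65.3 FPKM, was the highest of the 6 receptor genes there, while Ifnar2 was the highest in KSL cells. Of the further interferon-stimulated genes, Slfn1, also named after its values were seen, was at 280 FPKM in granulocytes and at 2.70 FPKM in the control KSL library, whereas Slfn2 was at 388 and 93.3 FPKM. Ly6a was at 2.17 FPKM in granulocytes against 1010 FPKM in the control KSL library. These values come from separate tables with different divisors and are given without a fold.

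Of the 45 genes 16 lie within 100 kb of another, in 11 pairs. In most of these pairs the intervals of the ratio of the LncHSC-1 library to control did not overlap. Examples are Oas2 and Oas3, with 0.21 to 0.30 and 0.42 to 0.50, and Ifit2 and Ifit3, with 0.39 to 0.53 and 0.82 to 1.02. The intervals overlapped only for Parp9 and Parp14 and for Gbp2 and Gbp3. Those of Parp9 and Dtx3l did not, but both are listed at the same locus and the division of reads between them is uncertain. All these intervals cover counting error only, and pairs of other genes were not compared, so nothing further is read from this. Genes with a response element match had a median ratio of 0.46 over 17 genes, and those without one had 0.31 over 17, with ranges of 0.06 to 1.05 and 0.09 to 1.34.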
